A study of Homo sapiens with 7 samples.

Results

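Among the most abundant RNAs of T47D/A1-2 cells, 184 of 2191 loci held no called gene transcription start site (TSS), which is 8.40% of the abundant loci. A locus was counted as abundant at 50 or more FPKM (RNA-seq fragments per kilobase of transcript, scaled to library size), and as lacking a call when no gene TSS lay inside it, on either strand, after it was widened by 1000 nt on each side. The 184 loci were therefore chosen by their FPKM and by the absence of a call, so their counts, FPKM and locus lengths are descriptions and were not tested. Over all 26175 loci of the table, 13111 lacked a call, or 50.1%. The T-47D line is a breast cancer line, and the methods of the study name its subline T47D/A1-2, which overexpresses the rat glucocorticoid receptor and carries an integrated luciferase reporter driven by the MMTV promoter. All cells grew in DMEM with 10% serum and then spent at least 24 hours in medium with 5% charcoal-stripped serum, which is low in steroid hormones, and no group received a hormone or other agent. The FPKM values were 1 value per gene from 3 merged poly-A RNA-seq libraries, and the 10391 gene TSSs came from 1 of 2 Start-seq libraries, so no value here has a replicate error and the depth behind each call is unknown.

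A messenger RNA level reflects both how often RNA polymerase II initiates at a promoter and how long the RNA lasts, while Start-seq reads the capped 5′ ends of short nascent RNAs, a mark of polymerases that initiated and had not gone far. The search for gene TSSs was set about the annotated starts of RefSeq mRNAs, used only reads that mapped to 1 place in hg19, and asked for 5 or more reads at a position. RNAs that are not mRNAs, starts that occur in several copies, and genes placed on sequences outside the assembled chromosomes thus entered it differently from ordinary mRNA genes.

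The highest FPKM of the 184, and of the whole table, belonged to a locus listed as a microRNA gene. The libraries were poly-A RNA-seq, and the read length given by the study is longer than this locus. Its FPKM is therefore not read here as the level of the microRNA. MIR622 had 2149 FPKM over a locus of 96 nt (chr13:90883436-90883531, + strand), the shortest of the members, and the nearest gene TSS was 2995591 nt away. MIR622 lies within KRT18P27, an annotated keratin 18 pseudogene, and all 96 of its positions were identical to that transcript. KRT18, a major keratin of simple and luminal epithelia, had 555 FPKM and a called gene TSS. Its mRNA holds a stretch that matched the MIR622 locus at 91 of 96 positions (94.8%) in the same orientation. The sequences are shown because a highly expressed mRNA holds a stretch nearly identical to the locus. The mature miRNA has its seed (bases 2 to 8) in capitals, and in the pair below it the capitals mark the positions that differ. The mature sequence is from RefSeq (GRCh38.p14), and the locus and the mRNA are from GRCh37 (hg19) and its annotation.
hsa-miR-622: aCAGUCUGcugagguuggagc
MIR622 locus: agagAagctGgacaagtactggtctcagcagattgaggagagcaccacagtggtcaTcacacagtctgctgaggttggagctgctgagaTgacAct
KRT18 mRNA: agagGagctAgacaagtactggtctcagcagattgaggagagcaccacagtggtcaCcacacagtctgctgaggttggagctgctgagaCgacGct
The 21 nt of the mature miRNA start at position 61 of the locus, and no capital falls inside them, so both sequences hold them unchanged. How the RNA-seq reads of this stretch were shared between the genes was not tested. MIR622 was the only small RNA among the members (1 of 184, 0.543%, exact 95% interval 0.0138 to 2.99%), and the other abundant small RNA locus, SNORD76, shares its locus with its host gene GAS5, which had a call.

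By class, most of the 184 were annotated as protein-coding genes. There were 152 protein-coding genes outside the other classes, with a median of 88.3 FPKM (50.2 to 734) and a median locus of 14478 nt (2131 to 164615). TUG1 (51.9 FPKM), LINC00493 (100.2 FPKM) and LINC01420 (76.1 FPKM), whose symbols are those of noncoding RNAs, are counted here because the annotation lists them as protein-coding. The 13 long noncoding RNA loci had a median of 98.4 FPKM (50.9 to 218). The 8 protein-coding genes shorter than 2000 nt had a median of 109 FPKM, and 7 members belonged to repeated gene families, 2 were pseudogenes and 1 had no annotated gene at its listed place. Set against the abundant loci of each class, 152 of 2004 other protein-coding loci (7.58%), 8 of 65 short genes (12.3%) and 7 of 86 family members (8.14%) lacked a call, shares near the 8.40% of all abundant loci. Both of the 2 pseudogenes and 13 of 18 long noncoding RNA loci (72.2%, exact 95% interval 46.5 to 90.3%) lacked one. The intervals here cover counting of loci only.

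**Figure D1:**
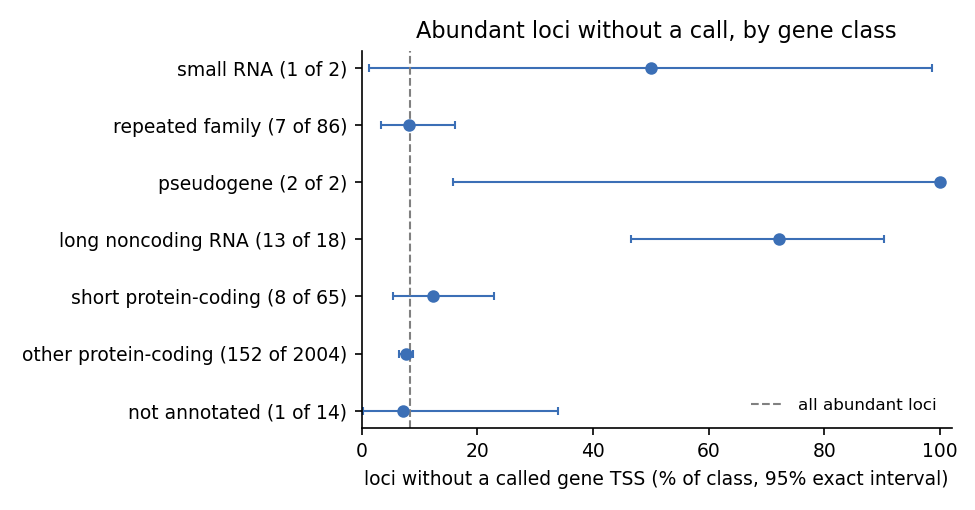
Points give the percent of abundant loci (50 FPKM or more) without a called gene TSS in each gene class, bars the exact 95% intervals over loci, and the dashed line the 8.40% of all abundant loci. Long noncoding RNAs (13 of 18) and pseudogenes (2 of 2) lie to the right of the line, while the protein-coding classes lie near it.

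The FPKM of the members spanned much the same range as that of the other abundant loci. Their median was 91.1 FPKM (quartiles 69.3 and 131) and that of the 2007 abundant loci with a call was 88.2 (quartiles 64 and 140). The share without a call fell from 78.3% of 13904 loci under 1 FPKM to 36.2% at 1 to 5, 18.4% at 5 to 10, 14.2% at 10 to 20 and 10.1% at 20 to 50. Above that it was 8.58% at 50 to 100, 9.03% at 100 to 200, 6.84% at 200 to 500 and 4.17% (2 of 48) at 500 or more. The last 2 are MIR622 and NACA. At the threshold, BCL7B (50.2 FPKM), PEF1 (50.9) and LOC93622 (50.9) were the members just inside, and RHBDF1 (49.5), TSNAX (49.4) and VEGFB (49.1) were the loci without a call just outside it.

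**Figure D2:**
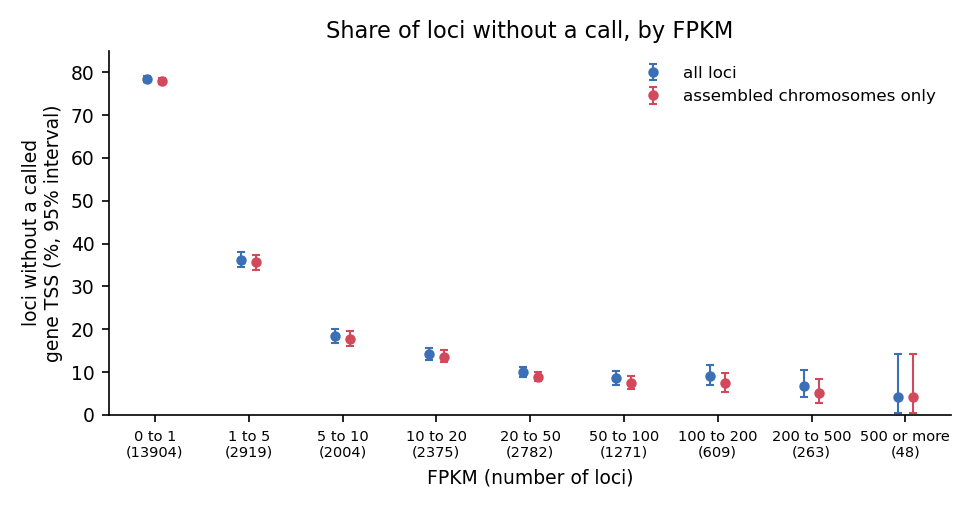
The vertical axis gives the percent of loci without a called gene TSS in each FPKM class, with the number of loci under each class and exact 95% intervals as bars, for all loci and for assembled chromosomes only. The share falls from 78.3% under 1 FPKM to 10.1% at 20 to 50 FPKM and stays between 4.17% and 9.03% above 50 FPKM.

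Shorter loci more often lacked a call. Locus length enters the rule, since a longer locus offers more room for a gene TSS, and gene classes also differ in length. How far either set these shares was not tested. On the assembled chromosomes 11 of 73 abundant loci under 2000 nt (15.1%), 24 of 237 at 2000 to 5000 nt (10.1%), 62 of 770 at 5000 to 20000 nt (8.05%), 32 of 621 at 20000 to 50000 nt (5.15%) and 25 of 460 of 50000 nt or more (5.43%) lacked one. Of the members under 2000 nt there, MIR622, SNHG8, SNHG5, DANCR, LOC93622 and ANXA2P2 are not annotated as protein-coding. UQCRHL, MIEN1, IFITM2, LAGE3 and SH3BGRL3 are. The median member locus was 12458 nt and the median abundant locus with a call 20643 nt. The longest listed locus was that of DSCAM-AS1, a long noncoding RNA known from estrogen receptor-positive breast cancer, at 834697 nt and 95.2 FPKM. That locus is shared by 4 genes of the table, and the canonical transcript of DSCAM-AS1 has 1640 nt. Next was the locus of CD24, a cell-surface glycoprotein gene, at 403964 nt and 165 FPKM, shared by 2 genes of the table. The locus of PDXDC1, a decarboxylase-domain gene, at 164615 nt and 105 FPKM, is shared by 7. These lengths are thus of listed loci and not of single genes. The CD24 locus is listed on chromosome Y, where no gene TSS was called, and the annotation used here places no gene of that name there.

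**Figure D3:**
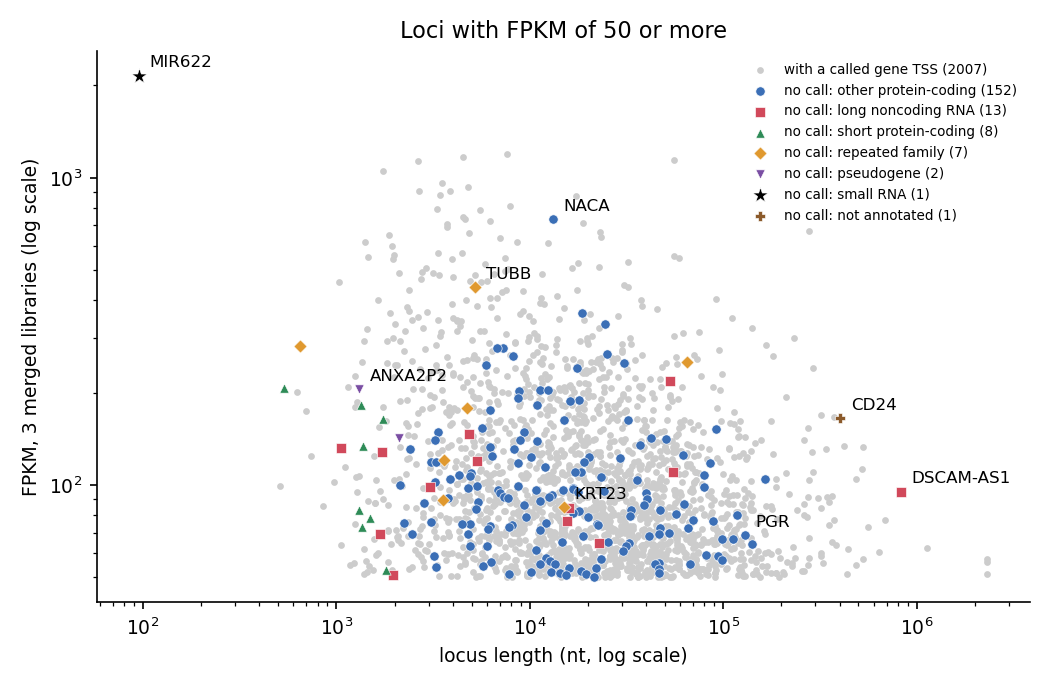
Each point is 1 locus with 50 FPKM or more, placed by locus length (nt) and FPKM of the merged libraries, both on log scales. Gray points have a called gene TSS (2007) and colored points do not (184, by class). The members spread over the range of the others, with MIR622 alone at the upper left (96 nt, 2149 FPKM).

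A set of 30 of the 184 members shared a placement. These 30 loci are listed on the alternate haplotype sequences of chromosome 6 that hg19 carries for the major histocompatibility complex (MHC), 22 of them on the sequence ssto_hap7. No gene TSS was called on any such sequence, so all 30 abundant loci on them lacked a call by construction. The 30 genes include MHC class I heavy chains, the peptide-loading gene TAPBP, and many genes of unrelated function that lie in the same gene-dense region. They ranged from 52.5 to 441 FPKM with a median of 107.
The annotation places the same 30 genes on assembled chromosome 6, between chr6:30034486 and 33386094. In that interval the FPKM table lists 2 loci (HLA-DQA1 and HLA-DRB5), while 81 gene TSSs were called there. For 28 of the 30 genes a gene TSS lay within 1000 nt of an annotated transcript start, and for 26 it lay on the gene's own strand within 1000 nt of the canonical start, the start of the representative transcript in the annotation. For those 26 the distance was 0 to 622 nt with a median of 36.0 nt, and 14 were within 50 nt.
TUBB, a beta-tubulin gene and the most abundant of the 30 (441 FPKM), had a gene TSS exactly at its canonical start. So did HLA-B (149 FPKM) and HLA-E (98.1 FPKM), both MHC class I heavy chains, BRD2 (86.7 FPKM), a bromodomain reader of acetylated histones, and DDX39B (82.4 FPKM), an mRNA export helicase. NELFE (94.6 FPKM), a subunit of the complex that holds paused polymerase near the start, had one 2 nt away, and TAPBP (65 FPKM), the peptide-loading factor tapasin, 5 nt away. RPS18 (284 FPKM), a small-subunit ribosomal protein gene, had one 81 nt from its canonical start, and CLIC1 (278 FPKM), a chloride intracellular channel gene, 14 nt from its own.
Of the 4 others, PFDN6 (182 FPKM) had a gene TSS 324 nt from its canonical start but none on its own strand within 1000 nt. The 2 without a gene TSS near any annotated start were ATF6B (92.6 FPKM), a stress-response transcription factor gene, whose nearest gene TSS was 2071 nt from any annotated start, and RGL2 (90.4 FPKM), 1265 nt away. AGPAT1 (65 FPKM), an acyltransferase of phospholipid synthesis, had a gene TSS 8 nt from another of its annotated starts but 2004 nt from the canonical one.

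**Figure D4:**
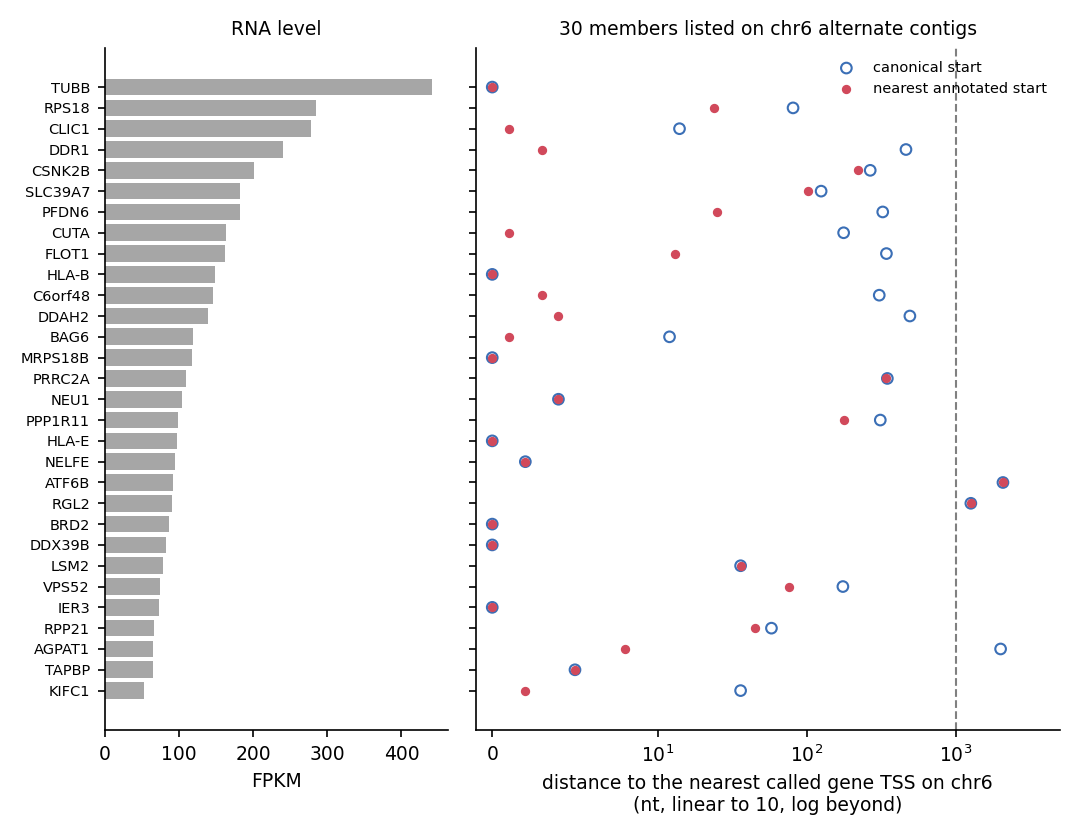
Left, bars give the FPKM of each of the 30 members listed on chromosome 6 alternate sequences. Right, the distance (nt, linear to 10 and log beyond) from the canonical start (open circles) and from the nearest annotated start (filled) to the nearest gene TSS on assembled chromosome 6, with the dashed line at 1000 nt. Filled points of 28 genes lie left of the line, and those of ATF6B and RGL2 lie right of it.

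Noncoding RNAs formed another set. Among abundant loci whose gene matched a RefSeq entry, 21 had no current RefSeq mRNA, and 15 of these 21 were members (71.4%, exact 95% interval 47.8 to 88.7%), against 168 of 2156 with one (7.79%). The mRNA status is that of a current RefSeq table (GRCh38.p14), while the search was set about mRNA starts of an older release, so some of these genes may have had a search window of their own. The 6 with a call (FGD5-AS1, GAS5, SNHG9, SNORD76, ST8SIA6-AS1 and ZFAS1) all share their listed locus with another gene of the table, as do 9 of the 13 long noncoding members.
Of the long noncoding members, LRRC75A-AS1 had the highest level, 218 FPKM, over a listed locus of 53205 nt that 5 genes of the table share. C6orf48 had 146 FPKM and is 1 of the 30 chromosome 6 placements. SNHG8 (132 FPKM), SNHG5 (128 FPKM), SNHG6 (110 FPKM) and SNHG7 (76.4 FPKM) are hosts of small nucleolar RNAs, which are released from their introns. LINC00657, also called NORAD, a long RNA that binds Pumilio proteins, had 120 FPKM over 5343 nt, and its nearest gene TSS was 41375 nt away. DANCR had 69.2 FPKM and NEAT1, the scaffold of nuclear paraspeckles, had 64.5 FPKM over 22741 nt. GATA3-AS1, the antisense neighbor of the luminal transcription factor gene GATA3, had 98.4 FPKM, and its nearest gene TSS was 1192 nt from the locus, just outside the widened window. LINC01578 (84.1 FPKM) was similar, with a gene TSS 1577 nt away.

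The 2 pseudogene members and a pseudogene-named locus share much of their exon sequence with another gene of the table. ANXA2P2 (205 FPKM) shares 72.2% of its exon 30-mers (runs of 30 nt) with ANXA2, an annexin gene of 120 FPKM, and PDIA3P1 (143 FPKM) shares 61.1% with PDIA3, a protein disulfide isomerase gene of 96.0 FPKM. RPSAP58 (252 FPKM) shares 41.9% with RPSA, the laminin receptor and ribosomal protein gene, at 58.3 FPKM. In each of these 3 pairs the pseudogene or pseudogene-named locus carried the higher FPKM of the pair, and how reads were divided within the pairs was not tested. UQCRHL, a single-exon relative of the complex III subunit gene UQCRH, was the most abundant short gene at 207 FPKM over 538 nt. UQCRHL shares 71.3% of its exon 30-mers with UQCRH (200 FPKM), and how reads were divided between them was not tested.
The other short genes were PFDN6 (182 FPKM, a prefoldin subunit), CUTA (164 FPKM), MIEN1 (134 FPKM, next to ERBB2), IFITM2 (83.1 FPKM, interferon-induced), LAGE3 (78.2 FPKM), IER3 (72.8 FPKM, an immediate early gene) and SH3BGRL3 (52.8 FPKM). Of these PFDN6, CUTA and IER3 are among the chromosome 6 placements.

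Repeated families were a small part of the members. Only 2 of 63 abundant cytosolic ribosomal protein genes lacked a call (3.17%), RPS18 and RPL13A (179 FPKM), and 1 of 6 keratin genes, KRT23 (84.7 FPKM), whose nearest gene TSS was 71485 nt away. Neither of the 2 abundant clustered histone genes was a member, and no metallothionein gene reached 50 FPKM. Of 5 tubulin genes 1 lacked a call, TUBB on its alternate sequence, and of 4 abundant MAGEA genes, tumor antigen genes of the X chromosome, 2 lacked one.
Those 2, MAGEA3 (121 FPKM) and MAGEA6 (89.3 FPKM), share most of the sequence at their starts, offset against each other. MAGEA3 shares 53.3% of its exon 30-mers with MAGEA6, and every 30-mer in the first 100 nt from the canonical start of either gene occurs elsewhere in the genome. Whether this bore on the lack of a call was not tested. The first 100 transcribed nt are shown for both, with the run of 84 nt that the genes share in capitals (MAGEA3 at chrX:151938141-151938240, - strand, and MAGEA6 at chrX:151867214-151867313, + strand, GRCh37).
MAGEA3: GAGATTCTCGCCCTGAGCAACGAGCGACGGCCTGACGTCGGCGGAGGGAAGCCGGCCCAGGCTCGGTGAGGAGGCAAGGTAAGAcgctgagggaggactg
MAGEA6: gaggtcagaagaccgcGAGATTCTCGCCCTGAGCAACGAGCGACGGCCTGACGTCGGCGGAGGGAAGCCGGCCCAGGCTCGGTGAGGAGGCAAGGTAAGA
A repeat of another kind stands at the start of EIF4A3 (114 FPKM), an RNA helicase of the exon junction complex (chr17:78120828-78120927, - strand). Its first 100 nt hold 4 head-to-tail copies of a 20-nt unit, in capitals, and 97.2% of their 30-mers occur at another position. Positions within the same 100 nt count for this, so the value does not show a copy outside this start.
EIF4A3: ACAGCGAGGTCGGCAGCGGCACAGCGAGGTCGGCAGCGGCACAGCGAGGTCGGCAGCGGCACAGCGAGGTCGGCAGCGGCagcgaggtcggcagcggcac
In all, 9 protein-coding members on assembled chromosomes had 50% or more of the 30-mers after their outermost or canonical start also at another position, inside or outside that start. Besides these 3 they were NPEPPS (152 FPKM), AZGP1 (149 FPKM), PDXDC1 (105 FPKM), IFITM2 (83.1 FPKM), YBX1 (78.9 FPKM) and TWF1 (56.5 FPKM).

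The rule that chose the members did not read sequence directly. Sequence at the annotated start was compared between the 167 protein-coding members and the 1988 abundant protein-coding genes with a call. Two-sided Fisher's exact tests were used, with Benjamini-Hochberg adjustment over 5 features. Repeated starts are a special case, because calls came only from reads that mapped to 1 place. A start that recurs could less readily gain a call, so that comparison is not independent of the choice of members. Of the 5 features, GC content and the GC box were added after values had been seen, as was the use of the canonical start in place of the outermost annotated start of the gene. Genes are not independent replicates, and the tests compare gene sets within these libraries. The 167 include the protein-coding genes among the 30 on chromosome 6 alternate sequences, tested at their starts on assembled chromosome 6. Of those 30, 28 have a gene TSS near an annotated start, so some members in these tests are called genes. On assembled chromosomes only, 138 members remain, and 5 of these also have a gene TSS near an annotated start outside their listed locus.
Repeated starts were more frequent among the members under some definitions of the start, on counts of 6 to 8 members. At the outermost start, 50% or more of the 30-mers in the first 100 nt were repeated in 8 of 167 members (4.79%) and 39 of 1988 called genes (1.96%), an odds ratio of 2.51 (95% interval 1.16 to 5.47, Fisher's exact p = 0.0254, adjusted p = 0.127). With 50-mers the counts were 7 (4.19%) and 18 (0.905%), an odds ratio of 4.79 (Fisher's exact adjusted p = 0.0107). At the canonical start they were 6 (3.59%) and 23 (1.16%), an odds ratio of 3.18 (95% interval 1.28 to 7.93, Fisher's exact adjusted p = 0.0350). The difference thus passed the threshold of 0.05 under the latter 2 settings and missed it in the first.
Very GC-rich starts were also more frequent among the members when the canonical start was used. GC made up 75% or more of the 100 nt centered on it in 59 of 167 members (35.3%) and 487 of 1988 called genes (24.5%), an odds ratio of 1.68 (95% interval 1.21 to 2.35, Fisher's exact adjusted p = 0.0146). On assembled chromosomes alone it was 55 of 138 members (39.9%), an odds ratio of 2.04 (95% interval 1.43 to 2.92, Fisher's exact adjusted p = 0.000801). At the outermost start the shares were 25.1% and 19.2% (odds ratio 1.42, Fisher's exact adjusted p = 0.167). By GC class of the canonical start on assembled chromosomes the shares did not rise steadily. There 1 of 22 genes under 50% lacked a call (4.55%), 19 of 266 at 50 to 60% (7.14%), 15 of 355 at 60 to 65% (4.23%), 21 of 478 at 65 to 70% (4.39%), 27 of 463 at 70 to 75% (5.83%), 32 of 342 at 75 to 80% (9.36%) and 23 of 200 at 80% or more (11.5%). IDH2, the mitochondrial isocitrate dehydrogenase 2 (364 FPKM, 84.0% GC), and CRIP2, a LIM-domain protein gene (279 FPKM, 85% GC), were the most abundant members of that kind. The 100 nt centered on their canonical starts are shown with G and C in capitals to make their composition visible (chr15:90645651-90645750, - strand, and chr14:105941108-105941207, + strand).
IDH2: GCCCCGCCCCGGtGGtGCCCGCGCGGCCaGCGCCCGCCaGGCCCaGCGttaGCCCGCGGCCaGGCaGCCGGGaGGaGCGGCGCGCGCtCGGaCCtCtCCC
CRIP2: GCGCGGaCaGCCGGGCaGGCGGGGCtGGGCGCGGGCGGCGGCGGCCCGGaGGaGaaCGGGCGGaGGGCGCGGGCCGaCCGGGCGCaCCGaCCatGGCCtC
CpG-rich starts (GC of 50% or more with more than 0.6 of the CpG dinucleotides that base composition predicts within 200 nt on each side) were found in 121 of 167 members (72.5%) and 1552 of 1988 called genes (78.1%) at the outermost start (odds ratio 0.739, Fisher's exact adjusted p = 0.167). At the canonical start the shares were 87.4% and 93.1% (odds ratio 0.515, 95% interval 0.315 to 0.839, Fisher's exact adjusted p = 0.0307). This call was lost on assembled chromosomes only (odds ratio 0.564, Fisher's exact adjusted p = 0.0848) and at 100 FPKM or more (odds ratio 0.640, adjusted p = 0.40). A GC box (GGGCGG or its reverse complement CCGCCC in the 50 nt upstream) was found in 31.7% of members and 28.4% of called genes at the outermost start (odds ratio 1.17, 95% interval 0.835 to 1.65, Fisher's exact adjusted p = 0.373).
A TATA box, searched as TATAA or TATAT on the strand of the gene with its first base at -35 to -24 from the start, was found in 8 of 167 members (4.79%) and 53 of 1988 called genes (2.67%) at the outermost start (odds ratio 1.84, 95% interval 0.858 to 3.93, Fisher's exact adjusted p = 0.172). On assembled chromosomes only it was 5 of 138 members (3.62%), an odds ratio of 1.37 (95% interval 0.540 to 3.49, Fisher's exact adjusted p = 0.422). At the canonical start it was 8 of the 167 members (4.79%) and 124 called genes (6.24%), an odds ratio of 0.756 (95% interval 0.363 to 1.57, Fisher's exact adjusted p = 0.613). The direction thus depended on the start used. A match is a description of these letters and not a mapped site. The members with a match at the same place for both starts include the 5 shown here from -40 with the match in capitals.
C1orf64: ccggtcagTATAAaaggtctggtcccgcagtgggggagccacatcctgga
TNNT1: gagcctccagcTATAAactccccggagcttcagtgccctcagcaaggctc
FAM25A: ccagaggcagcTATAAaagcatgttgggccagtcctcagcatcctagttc
MARCKSL1: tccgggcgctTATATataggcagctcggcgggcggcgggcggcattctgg
HLA-E: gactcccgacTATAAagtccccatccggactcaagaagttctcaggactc
C1orf64 (69.4 FPKM, chr1:16330691-16330740, + strand), TNNT1 (96.7 FPKM, slow skeletal troponin T, chr19:55660565-55660614, - strand), FAM25A (74.3 FPKM, chr10:88780011-88780060, + strand) and MARCKSL1 (131 FPKM, an actin-binding protein gene, chr1:32801825-32801874, - strand) had their nearest gene TSSs 11546, 15061, 49944 and 41689 nt from their loci. HLA-E (chr6:30457246-30457295, + strand) differs from these in having a gene TSS at the start it is drawn from. RPS18, not drawn, also has a match at both starts and a gene TSS 81 nt from its canonical start.

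**Figure D5:**
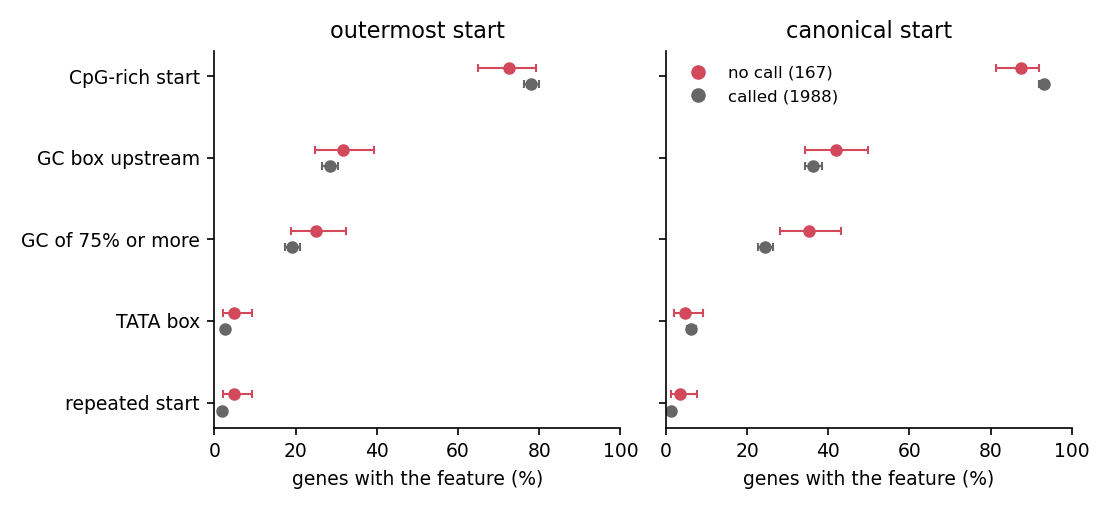
Points give the percent of abundant protein-coding genes that carry each sequence feature at the outermost (left) and canonical (right) annotated start. Red marks the 167 protein-coding members, including those on chromosome 6 alternate sequences, and gray the 1988 genes with a call. Bars give exact 95% intervals. At the canonical start GC of 75% or more was found in 35.3% against 24.5% and a CpG-rich start in 87.4% against 93.1%.

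Every member could be placed in 1 of 6 groups, taken in order and set up after their values were seen. There were 30 on chromosome 6 alternate sequences, 14 annotated as noncoding RNA or pseudogene, 2 with no annotated gene at the listed locus (CD24, and LOC93622, counted above as long noncoding by its symbol), 5 protein-coding genes with a gene TSS near an annotated start outside their listed locus, and 9 with a repeated start. The 5 were SAE1 (108 FPKM), TXNL1 (104 FPKM), ABHD14B (71.7 FPKM), NUP37 (55.3 FPKM) and VAT1 (51.3 FPKM). The pseudogene PDIA3P1, placed among the 14, also had a gene TSS on either strand within 1000 nt of 2 of its 3 annotated starts. The last group, of 124 protein-coding genes (67.4% of the members, exact 95% interval 60.1 to 74.1%), had none of these features. Searching both the locus and 1000 nt about every annotated start left 150 of the 184 without a call.
The 124 ranged from 50.2 to 734 FPKM with a median of 85.2. NACA, the alpha subunit of the nascent polypeptide-associated complex, was the highest at 734 FPKM (chr12:57106211-57119326), and its nearest gene TSS was 26682 nt from the locus. DYNLRB1 (335 FPKM), a dynein light chain gene, PTGES3 (267 FPKM), the HSP90 co-chaperone p23, and GGCT (262 FPKM), an enzyme of the glutathione cycle, were with IDH2 and CRIP2 the next highest. PTGES3 and NACA are neighbors on chromosome 12.
Some genes known from hormone-responsive breast cells were among the 124. They were picked after their values were seen and say nothing of such genes as a group, since GATA3 (360 FPKM), FOXA1 (113 FPKM), AGR2 (613 FPKM), ERBB3 (259 FPKM) and FKBP5 (70.6 FPKM) each had a call. PGR, the progesterone receptor gene, for which the T-47D line is known, had 68.5 FPKM. Its listed locus of 129647 nt (chr11:100900355-101030001) is shared by 2 genes of the table, and the nearest gene TSS was 342336 nt away. CTSD, the lysosomal protease cathepsin D and an estrogen-induced gene, had 204 FPKM and a nearest gene TSS at 183340 nt. IGFBP5 (106 FPKM), an insulin-like growth factor binding protein gene, was 38684 nt from a gene TSS. ZNF217 (60.9 FPKM), a zinc finger gene often amplified in breast cancer, was 487788 nt away, and the homeobox gene IRX5 (54.2 FPKM) was 574589 nt away.
Of 34 abundant genes with proteasome symbols (PSMA to PSMG), 2 lacked a call (5.88%), PSMB5 (86.0 FPKM) and PSME1 (88.2 FPKM). Of 32 with complex I symbols (NDUF), 2 lacked one (6.25%), NDUFA12 (163 FPKM) and NDUFV1 (153 FPKM). Both shares are near the 8.40% of all abundant loci, and both lists were set up after the members were known. The small GTPase gene CDC42 (89.8 FPKM) was also among the 124.

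Some members were neighbors. Among abundant loci in genome order on assembled chromosomes there were 9 runs of 2 or more members. Runs of 3 members were MARCKSL1, KIAA1522 and TMEM54 on chromosome 1 and LRP10, PSMB5 and PSME1 on chromosome 14. Whether such runs exceed what the number of members gives was not tested. Over the 153 members on chromosomes with any call, the nearest gene TSS was 1063 to 2995591 nt from the locus, with a median of 22245 nt, and 26 had one within 5000 nt. Upstream antisense TSSs (uaTSSs) were called in the widened locus of 3 members, UXT, CIRBP and GATA3-AS1, and downstream antisense TSSs (daTSSs) in that of none of the 184, against 67.8% and 34.7% of the 2007 abundant loci with a call. Antisense TSSs were searched for about called gene TSSs, so the choice of members nearly fixes these low counts.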

How the data were processed

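The authors trimmed Start-seq reads with Cutadapt 1.2.1, mapped unique reads to hg19 with Bowtie 0.12.8, and searched 2000-nt windows about RefSeq mRNA starts, keeping positions with 5 or more reads. The deposited call lists carry a score of 0 throughout and so give no read depth. Poly-A RNA-seq was mapped by the authors with TopHat2 2.0.4, duplicates were removed with Picard, and FPKM values were deposited as 1 column from Cufflinks 2.2.1 over 3 merged libraries. Loci were used as listed, with the start moved to 1-based. The members and gene lists were chosen with earlier results of these data known. Symbols were matched to GENCODE v44 on GRCh37, and 2175 of 2191 abundant loci matched. Repeated runs were counted over both strands of GRCh37 assembled chromosomes, and a recurrence within the same start counted as well. Fisher's exact tests and Clopper-Pearson 95% intervals used scipy, and the search, run counting and test were tested on simulated data. Named genes were all members of classes of 6 or fewer, otherwise the 6 with the highest FPKM, plus the 3 nearest the threshold on each side, the 3 longest loci, and keratin and ribosomal protein members. Other genes were picked after their values were seen. MNase-seq and FAIRE-seq files were not used here. Results that need items withheld for evaluation are not reported here.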

Additional observations from a re-analysis of the deposited data

How the results depend on the processing

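The number of members was 464 at 20 FPKM or more, 75 at 100 FPKM or more and 426 without widening, and 139 to 220 under the other 9 ways of counting (220 when only calls on the gene's strand count). The small RNA share was 0.431 to 1.33% throughout. At 20 FPKM or more the odds ratios at the outermost start were 1.94 for the TATA box (adjusted p = 0.0409, Fisher's exact test), 0.698 for CpG-rich starts and 3.59 for repeated starts, all past the threshold, and at the canonical start 0.453 for CpG-rich, 7.66 for repeated and 1.36 for starts of 75% GC or more. The TATA odds ratio turned to 0.854 at 100 FPKM or more, 0.653 with any annotated start, 0.756 at the canonical start, 0.683 there on assembled chromosomes only and 0.285 there at 100 FPKM or more, each missing the threshold. Repeated starts passed it with 50-mers (4.79), at the canonical start (3.18), on assembled chromosomes only (3.08) and with both (3.88), but not without the repeated families (2.03, adjusted p = 0.240, Fisher's exact test) or at 100 FPKM or more at either start (3.79 and 2.38, adjusted p = 0.101 and 0.399). Calls came only from reads that mapped to 1 place. In every setting the comparison of repeated starts is thus not independent of the choice of members. At the canonical start CpG-rich starts passed it at 0.515 but not on assembled chromosomes only (0.564) or at 100 FPKM or more (0.640), and starts of 75% GC or more at 1.68, at 2.04 on assembled chromosomes only and at 2.30 at 100 FPKM or more. The causes were not tested. Alternatives with the canonical start or assembled chromosomes only, and the GC and GC box features, were chosen after seeing the data. The GC box kept its direction and missed the threshold in all 9 of its alternatives. No paired analysis was possible because the FPKM values are 1 merged column and the calls come from 1 library. For the same reason no replicate could be left out. The read depth behind the calls is unknown, which limits every absence of a call.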

Other observations

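Long noncoding RNAs below the threshold gave the same kind of count. The calls came from the same search about RefSeq mRNA starts, so this count is not independent support for the one above the threshold. At 20 to 50 FPKM, 19 of 32 long noncoding RNA loci had no called gene TSS (59.4%), against 250 of 2682 other protein-coding loci (9.32%). CRNDE had 39.96 FPKM, OIP5-AS1 28.8 FPKM and MALAT1, an abundant nuclear RNA that lacks a regular poly-A tail, 27.1 FPKM. All 36 loci of 20 to 50 FPKM on alternate sequences lacked a call, and among these were HSPA1A (47.1 FPKM), an inducible heat shock protein gene, and DAXX (47.5 FPKM), a histone chaperone gene. SNORA40 (29.99 FPKM over 127 nt) was the 1 small RNA locus of 5 in that range without a call.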
